A study of Homo sapiens with 4 samples.

Results

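Genes that mark the epithelium of the stomach were read in AGS, a cell line of human stomach adenocarcinoma, with and without PRMT6. The 10 genes were PGC, CTSE, GKN1, GKN2, SOX2, MUC5AC, MUC6, MUC1, PSCA and VSIG1, chosen by symbol as lineage genes of the stomach from 19775 genes measured. Every probe set annotated to exactly 1 of these genes was taken, 21 in all, and the brightest stood for its gene. PRMT6 is an enzyme that methylates arginine residues, among them arginine 2 of histone H3. The 2 groups were PRMT6-KO cells (n = 2 arrays), in which PRMT6 was targeted with a guide in the lentiCRISPR v2 vector followed by puromycin and limiting dilution, and control cells with wild-type PRMT6 (n = 2 arrays). The labels do not say which clone each PRMT6-KO array came from, nor what vector or cloning step the control cells went through, so effects of PRMT6 loss and of a clone cannot be told apart. Nothing says that the 2 arrays of a group came from separate cultures, so p-values measure only the spread between these arrays, which may be technical.

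The guide against PRMT6, a gene on chromosome 1, is shown because it defines the PRMT6-KO cells. It is given 5′ to 3′ in lower case.
PRMT6 guide: gacggtactggacgtgggcg

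The stomach lining is built from surface and pit cells, which secrete gel-forming mucin and gastrokines, and from glands whose neck, chief, parietal and endocrine cells make mucus, pepsinogens, acid and hormones. SOX2, a transcription factor of the foregut, keeps this identity apart from that of the intestine, which is driven by CDX2. Gastric cancers often lose surface and gland products while keeping part of the program, and cell lines express it unevenly.

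Of the 10 genes, the protease genes PGC and CTSE fell in PRMT6-KO cells, by 1.73-fold and 1.94-fold, and the transcription factor gene SOX2 rose by 1.50-fold. The transmembrane mucin gene MUC1 had lower values in PRMT6-KO cells but did not pass the test. The other 6 genes had overlapping arrays on their brightest probe set. They read within or just above the range of 13 genes of other tissues, given below. Thus 1 of 10 genes was higher and 2 were lower at an adjusted p below 0.05 (limma, Benjamini-Hochberg over all genes), where 12.4% of all 19775 genes were called higher and 11.5% lower. Together 3 of 10 were called, and 24.0% of all genes were, so the share of called genes among the 10 stands near that of all genes. With reference gene scaling, 1 of the 10 was higher and 3 were lower (MUC1 in addition), beside 1367 genes higher and 5730 lower over all genes in place of 2459 and 2281. The arrays of the 2 groups did not overlap for 4 of the 10 genes, against 58.2% of all genes. The median change of the 10 was 0.06 on the log2 scale and that of all genes was -0.01. Of the 10 genes, 6 had a mean log2 intensity of at least 5 over the 4 arrays.

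**Figure D1:**
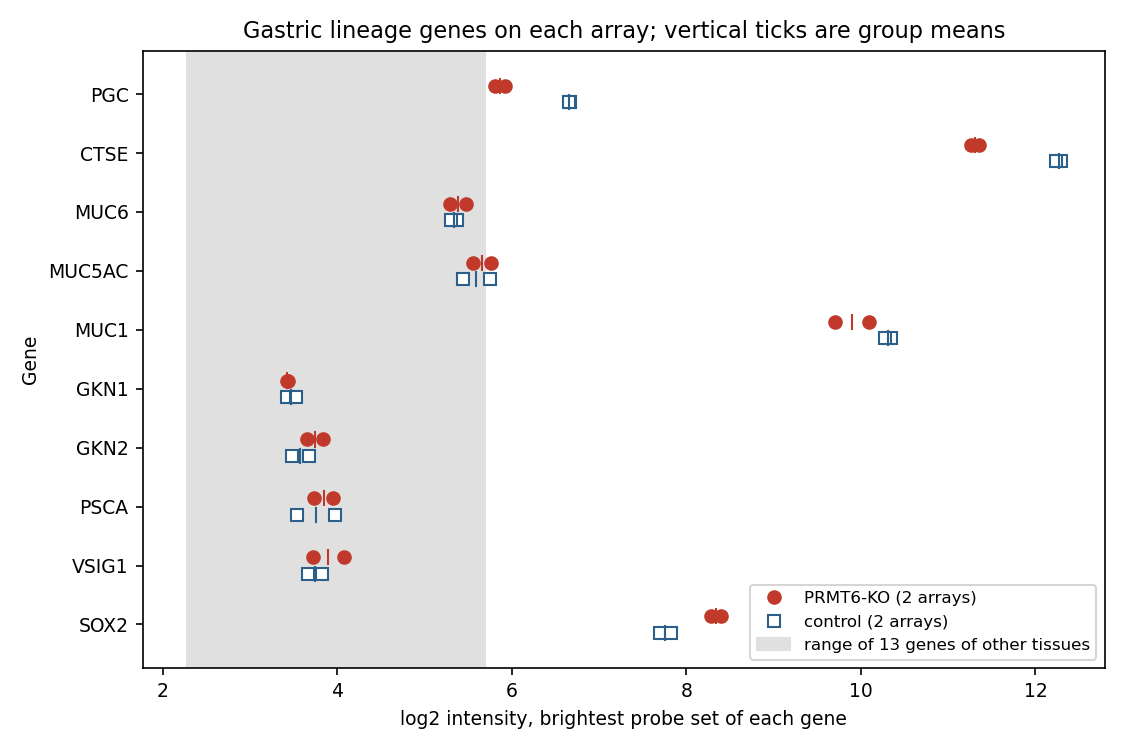
Log2 intensity of the brightest probe set (horizontal axis) for each of the 10 gastric lineage genes (rows), with filled circles for the 2 PRMT6-KO arrays, open squares for the 2 control arrays and short vertical ticks for group means. PGC, CTSE and MUC1 lie lower and SOX2 higher in PRMT6-KO cells with no overlap. The grey band spans 2.27 to 5.69, the values of 13 genes of other tissues, and positions of different genes cannot be ranked as RNA amounts.

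Across probe sets, Pearson's r was 0.996 between the PRMT6-KO arrays, 0.995 between the control arrays, and between the groups it lay from 0.981 to 0.984. The PRMT6 transcript itself was 7.79 and 7.63 in PRMT6-KO cells, against 8.03 and 8.11 in control cells (log2 intensity). It fell by 0.36 (SE 0.09, adjusted p = 0.0429, limma), and this call was not kept when 1 array was left out, whichever it was (adjusted p from 0.103 to 0.228), nor with gene-specific probe sets (0.0577), the replicate block (0.0762) or all probe sets tested (0.0850). With reference gene scaling it was -0.57. The probe set is not known to lie at the edited site, so it does not check the edit. Markers of simple epithelium were bright in both groups, with EPCAM, KRT8, KRT18, KRT19, CDH1, CLDN4 and CLDN7 between 7.20 and 13.30 over the 4 arrays.

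For PGC and CTSE, the pair of genes that fell together, and for SOX2, which rose, the 250 bases before the annotated start of the gene are shown from RefSeq (GRCh38.p14), 5′ to 3′ on the gene's own strand. These windows were searched for 4 short motifs chosen after the values were seen. The table held a promoter for 6 of the 10 genes. Capitals mark every match on either strand to TATAAA (the TATA box), GATAA (GATA factors), TGTTTAC (FOXA factors) or ACAAT (SOX factors), and none of the matches overlap.
PGC, chr6:41747398-41747647, minus strand: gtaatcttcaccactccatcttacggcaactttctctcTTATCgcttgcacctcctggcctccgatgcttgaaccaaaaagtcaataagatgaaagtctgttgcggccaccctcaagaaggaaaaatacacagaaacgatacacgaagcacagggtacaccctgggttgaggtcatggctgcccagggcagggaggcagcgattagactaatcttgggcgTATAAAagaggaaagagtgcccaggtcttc
CTSE, chr1:206023896-206024145, minus strand: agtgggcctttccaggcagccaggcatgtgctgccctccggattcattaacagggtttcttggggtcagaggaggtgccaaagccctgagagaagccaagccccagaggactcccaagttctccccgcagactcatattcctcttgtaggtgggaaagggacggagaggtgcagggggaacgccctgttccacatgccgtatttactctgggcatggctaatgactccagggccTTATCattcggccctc
SOX2, chr3:181711675-181711924, plus strand: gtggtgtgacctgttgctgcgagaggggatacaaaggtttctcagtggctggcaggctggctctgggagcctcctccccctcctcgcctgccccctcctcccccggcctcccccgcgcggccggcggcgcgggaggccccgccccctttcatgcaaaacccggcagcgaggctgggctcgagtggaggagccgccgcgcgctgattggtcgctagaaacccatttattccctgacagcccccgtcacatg

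PGC held a TATAAA from 30 to 25 bases before its start and a GATAA on the opposite strand from 212 to 208 bases before it. CTSE held a GATAA on the opposite strand from 16 to 12 bases before its start. The SOX2 window held none of the 4 motifs, and neither TGTTTAC nor ACAAT stood in any of the 3 windows. Among 35116 promoter windows of the same length, TATAAA was found in 10.7%, GATAA in 20.4%, TGTTTAC in 2.98% and ACAAT in 24.6%. A match is a run of letters and not a bound site, and the array data do not bear on binding there.

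PGC encodes pepsinogen C, the precursor of an acid protease secreted by chief cells and other gland cells. Its log2 intensity was 5.92 and 5.81 in PRMT6-KO cells, against 6.66 and 6.66 in control cells. The groups did not overlap, and the control arrays lay closer together than the PRMT6-KO arrays. PGC fell by 0.79 (SE 0.08, 95% confidence interval -1.001 to -0.585, adjusted p = 0.00328, limma), with means of 5.87 ± 0.08 in PRMT6-KO cells and 6.66 ± 0.01 in control cells (SD, n = 2 each). A second, dimmer PGC probe set gave 4.81 and 5.11 in PRMT6-KO cells, against 6.43 and 6.46 in control cells. There PGC fell by 1.49 on the log2 scale, or 2.80-fold (SE 0.13, adjusted p = 0.00527 over all probe sets, limma). Both probe sets therefore showed a fall, of different size. The call on the brightest probe set was lost without PRMT6-KO replicate 1 (-0.85, adjusted p = 0.0529) and without PRMT6-KO replicate 2 (-0.74, adjusted p = 0.0608), where the lone array is assumed to vary like the controls.

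CTSE encodes cathepsin E, an intracellular aspartic protease of the same family, found in gastric surface cells. It was bright on every array, at 11.35 and 11.26 in PRMT6-KO cells, against 12.29 and 12.24 in control cells. All PRMT6-KO values lay below all control values, with a gap wider than the spread within either group. CTSE fell by 0.96 (SE 0.08, 95% confidence interval -1.16 to -0.75, adjusted p = 0.00202, limma), with means of 11.31 ± 0.06 in PRMT6-KO cells and 12.26 ± 0.04 in control cells (SD, n = 2 each). The gene had 1 probe set, of a kind that can read several transcripts. Its call was kept without PRMT6-KO replicate 1 (adjusted p = 0.0489) and lost without PRMT6-KO replicate 2 (-0.92, adjusted p = 0.0530). In RNA from whole cultures, fewer cells expressing a gene and less RNA per cell cannot be told apart.

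SOX2 was measured by 4 probe sets. The brightest read 8.40 and 8.28 in PRMT6-KO cells, against 7.69 and 7.82 in control cells. Both PRMT6-KO arrays lay above both control arrays. SOX2 rose by 0.58 (SE 0.09, 95% confidence interval 0.35 to 0.81, adjusted p = 0.0100, limma), with means of 8.34 ± 0.08 in PRMT6-KO cells and 7.76 ± 0.09 in control cells (SD, n = 2 each). The next 2 probe sets by brightness changed by 0.22 and 0.37 without passing the test (adjusted p = 0.324 and 0.237 over all probe sets). The groups did not overlap on these 2 either, beside 58.2% of all genes without overlap on their brightest probe sets. That share was not computed over all probe sets. The dimmest changed by -0.03 (95% confidence interval -0.28 to 0.22). With the mean of the 4 probe sets the change was 0.29 (adjusted p = 0.0877), and with arrays scaled to reference genes it was 0.37 (adjusted p = 0.0355). The call was lost without control replicate 1 (adjusted p = 0.0578), without PRMT6-KO replicate 1 (0.101) and without PRMT6-KO replicate 2 (0.0842). SOX2 lies within the long non-coding RNA gene SOX2-OT, which was looked up after the values were seen. SOX2-OT read 1.99 and 2.00 in PRMT6-KO cells, against 2.03 and 2.00 in control cells, near the bottom of the scale.

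**Figure D2:**
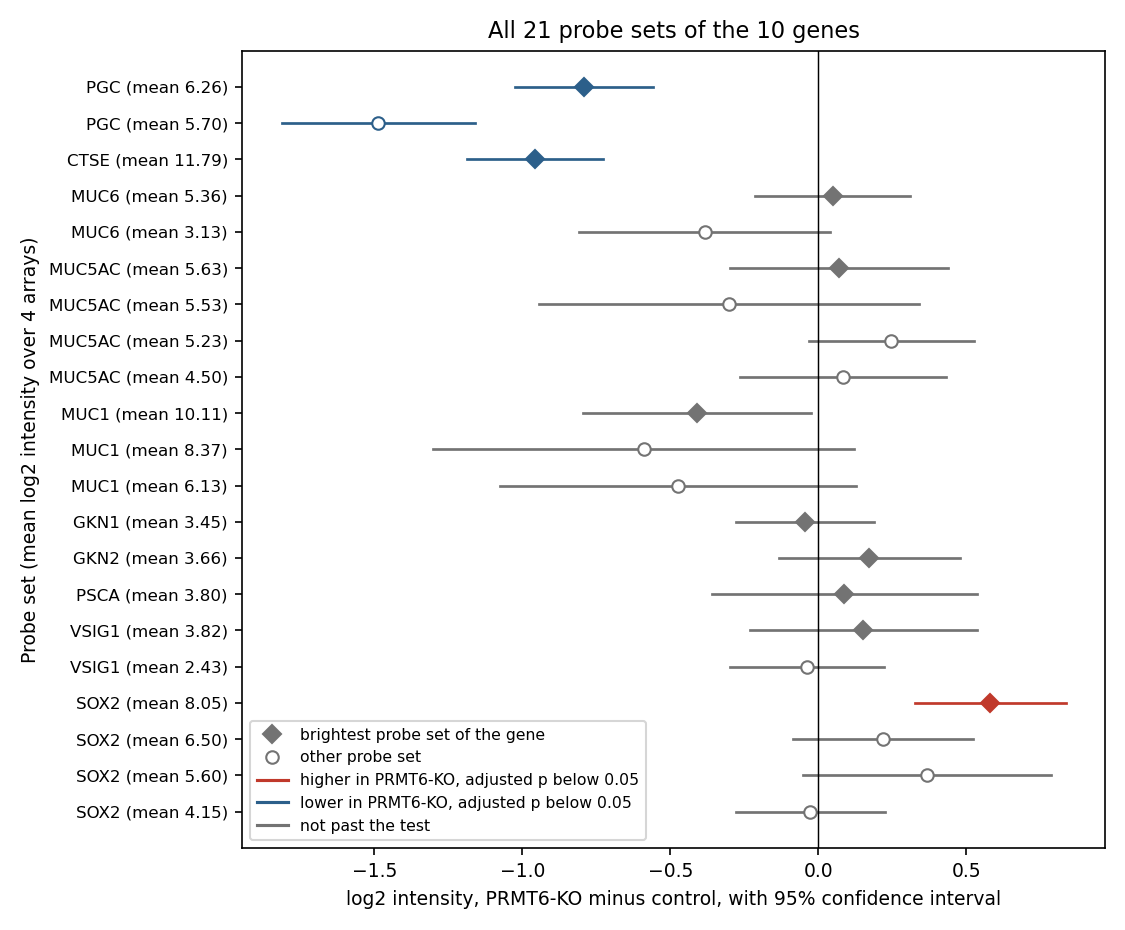
Change in log2 intensity (PRMT6-KO minus control, points, with 95% confidence intervals as lines) for each of the 21 probe sets of the 10 genes, with diamonds for the brightest probe set of a gene and open circles for others. Both PGC probe sets and the CTSE probe set lie below 0, and 1 of 4 SOX2 probe sets is past the test above 0.

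When all 54613 probe sets were fitted together, 1 of the 21 probe sets of these genes was higher and 3 were lower at an adjusted p below 0.05 (limma), where 6.68% of all probe sets were called higher and 6.38% lower. The called ones were the brightest of SOX2, both of PGC and that of CTSE.

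MUC1 encodes a mucin anchored in the apical membrane of many epithelia. Its brightest probe set read 10.10 and 9.71 in PRMT6-KO cells, against 10.35 and 10.27 in control cells. The groups did not overlap, and the PRMT6-KO arrays lay farther apart than the control arrays. The change was -0.41 (SE 0.14, 95% confidence interval -0.77 to -0.05, adjusted p = 0.106, limma) and did not pass the test. The other 2 probe sets had changes of -0.59 (8.29 and 7.86 in PRMT6-KO cells, against 9.02 and 8.30 in control cells) and -0.47 (6.03 and 5.76, against 6.69 and 6.05), neither past the test. All 3 probe sets had every PRMT6-KO array below every control array. On their brightest probe sets, 58.2% of all genes had no overlap in either direction, a share not computed for dimmer probe sets. For the other 2 probe sets the nearest arrays were close, at 8.29 against 8.30 and 6.03 against 6.05. The 3 probe sets read the same arrays, so they are not independent measurements. All 3 are of kinds that can read several transcripts. MUC1 passed the test with a prior that follows intensity (adjusted p = 0.0312) and with reference gene scaling (-0.62, adjusted p = 0.0257). Its value depended on 1 array, at -0.60 without PRMT6-KO replicate 1 and -0.21 without PRMT6-KO replicate 2.

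MUC5AC and MUC6 encode the gel-forming mucins of surface cells and of neck and deep gland cells. MUC5AC read 5.56 and 5.76 in PRMT6-KO cells, against 5.44 and 5.75 in control cells. MUC6 read 5.30 and 5.47 in PRMT6-KO cells, against 5.37 and 5.30 in control cells. On these brightest probe sets the arrays of both genes overlapped. The change was 0.07 for MUC5AC (95% confidence interval -0.28 to 0.41, adjusted p = 0.790, limma). For MUC6 it was 0.05 (95% confidence interval -0.19 to 0.29, adjusted p = 0.786, limma). The other 3 MUC5AC probe sets changed by -0.30, 0.25 and 0.08 and the other MUC6 probe set by -0.38, none past the test. The groups did not overlap for the MUC5AC probe set at 0.25 (5.39 and 5.32 in PRMT6-KO cells, against 5.01 and 5.21 in control cells). Nor did they for the other MUC6 probe set (2.94 and 2.93, against 3.09 and 3.54). Of all genes, 58.2% had no overlap on their brightest probe sets, a share not computed for dimmer probe sets. One control array carried the MUC5AC value of -0.30, with 5.40 and 5.37 in PRMT6-KO cells, against 5.31 and 6.06 in control cells.

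GKN1 and GKN2 encode gastrokines, small secreted proteins of surface mucous cells that share a BRICHOS domain. GKN1 read 3.42 and 3.44 in PRMT6-KO cells, against 3.42 and 3.52 in control cells. GKN2 read 3.65 and 3.84 in PRMT6-KO cells, against 3.47 and 3.67 in control cells. Both were dim with overlapping arrays. GKN1 changed by -0.04 (95% confidence interval -0.25 to 0.16) and GKN2 by 0.17 (-0.11 to 0.46), with adjusted p of 0.771 and 0.351 in limma.

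PSCA encodes a surface protein of the LY6 family held by a lipid anchor, and VSIG1 an immunoglobulin-type membrane protein of gastric epithelium. PSCA read 3.95 and 3.73 in PRMT6-KO cells, against 3.53 and 3.97 in control cells. VSIG1 read 3.72 and 4.07 in PRMT6-KO cells, against 3.66 and 3.82 in control cells. The arrays overlapped for both genes. PSCA changed by 0.09 (95% confidence interval -0.34 to 0.51, adjusted p = 0.781, limma). VSIG1 changed by 0.15 (-0.21 to 0.51, adjusted p = 0.525), and its dimmer second probe set changed by -0.04.

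The array values have no true zero, and detection calls were not used here. As a description of dim probe sets, 13 genes of heart, lens, testis, brain, muscle and islet, cell types that AGS cells are not, read between 2.27 and 5.69 over the 4 arrays. All GKN1, GKN2, PSCA, VSIG1 and MUC6 arrays of the brightest probe set lay within that range, as did the MUC5AC arrays at 5.44 and 5.56. The MUC5AC arrays at 5.75 and 5.76 lay just above it. Whether these 6 genes were expressed in either group was not detectable from these values. The lower of the PGC values in PRMT6-KO cells, 5.81, lay close to the top of that range. Those of the second PGC probe set in PRMT6-KO cells, 4.81 and 5.11, lay within it. The fold of PGC is therefore approximate on both probe sets. None of the 13 genes passed the test (0 of 13, limma). Only PRM2 and INS, the 2 of them with the largest changes, were also read with reference gene scaling. Both passed there (PRM2 -0.41, adjusted p = 0.0409, and INS -0.37, adjusted p = 0.0201, limma), the scaling under which MUC1 also passed. The rest of the 13 were not read under that scaling.

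**Figure D3:**
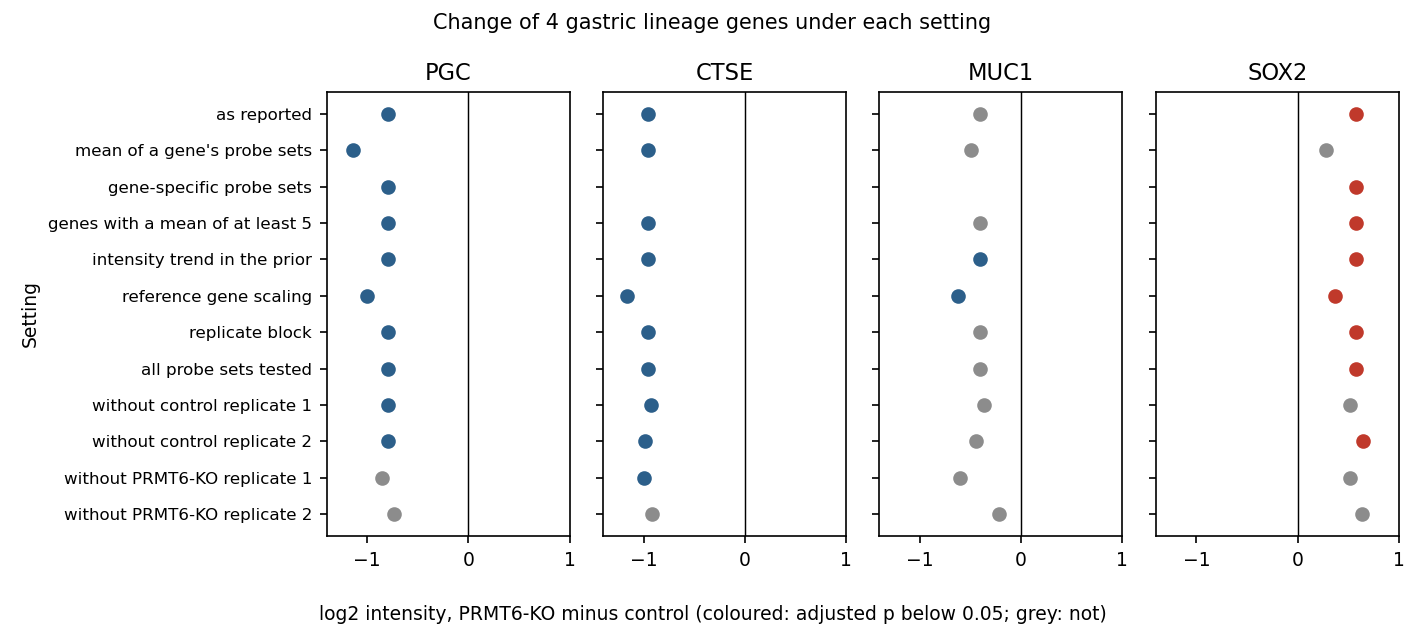
Change in log2 intensity (PRMT6-KO minus control, horizontal axis) of PGC, CTSE, MUC1 and SOX2 under each processing setting (rows), coloured where the adjusted p was below 0.05 and grey where it was not. Each of the 4 genes kept its direction in every setting that read it; CTSE and MUC1 have no value with gene-specific probe sets.

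Further genes of the same cells were read from lists. Of 16 genes of surface, pit and neck cells, 2 were higher and 5 lower (limma), where 12.4% of all genes were called higher and 11.5% lower. The list median was -0.12. TFF1, the trefoil peptide of surface cells, read 6.15 and 6.63 in PRMT6-KO cells, against 9.79 and 9.73 in control cells. It fell by 3.37 (SE 0.16), the largest change of this list, and kept its call with each array left out. The calpain gene CAPN8 fell by 1.75, GCNT3, which branches mucin glycans, by 1.13, CYSTM1 by 0.78 and the fucosyltransferase FUT3 by 0.56. All 4 FUT3 values (4.67 and 4.55 in PRMT6-KO cells, against 5.19 and 5.14 in control cells) and the CAPN8 values in PRMT6-KO cells (5.16 and 4.72) lay within the range of the 13 genes of other tissues, so the sizes of these changes are approximate. FUT2, another fucosyltransferase, rose by 0.44 (8.18 and 8.01 in PRMT6-KO cells, against 7.64 and 7.67 in control cells, adjusted p = 0.0231, limma), and was named after its values were seen. FUT2 lost its call with any array left out, with reference gene scaling (0.23) and with all probe sets tested (highest adjusted p 0.145). The annexin ANXA10 rose by 1.53, with 5.05 and 5.35 in PRMT6-KO cells, against 3.87 and 3.47 in control cells. All 4 ANXA10 values lay within the range of the 13 genes of other tissues, so the size of this rise is approximate. The calls of CAPN8, GCNT3, CYSTM1, FUT3 and ANXA10 were lost without PRMT6-KO replicate 1 and without PRMT6-KO replicate 2 (highest adjusted p 0.0975 for CAPN8), and that of FUT3 also without either control array.

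Of the 4 chief cell genes measured besides PGC, BHLHA15, a regulator of secretory cell structure, fell by 4.34 (4.90 and 4.97 in PRMT6-KO cells, against 9.37 and 9.19 in control cells). Its PRMT6-KO values lay within the range of the 13 genes of other tissues, so the size of that fall is approximate. LIPF, CHIA and CBLIF were dim and did not pass the test, where 24.0% of all genes were called. Among 5 parietal cell genes, beside the same 24.0%, the nuclear receptor ESRRG rose by 0.94 and the potassium channel KCNQ1 fell by 0.50. Both proton pump genes, ATP4A (0.00) and ATP4B (0.01), did not pass. The ESRRG values in control cells (5.21 and 5.15) lay within the range of the 13 genes of other tissues, so the size of its rise is approximate. No gene of 6 endocrine cell genes passed the test; CHGA (0.20) and GAST (-0.15) had the largest values. With reference gene scaling GAST was -0.36 and passed (adjusted p = 0.0305), and CHGA was -0.0077. Without PRMT6-KO replicate 1 and without PRMT6-KO replicate 2 the calls of ESRRG and KCNQ1 were lost, and that of KCNQ1 also without either control array (highest adjusted p 0.0529 and 0.110).

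Beside SOX2, 9 other transcription factors of the stomach were measured, of which 2 were higher and 1 lower (24.0% of all genes called). GATA4 rose by 0.60, or 0.39 with reference gene scaling (9.13 and 9.12 in PRMT6-KO cells, against 8.62 and 8.43 in control cells). GATA6 rose by 0.38, or 0.17 with reference gene scaling, where it did not pass (adjusted p = 0.125). FOXA2, an endoderm factor, fell by 1.12 (6.97 and 6.85 in PRMT6-KO cells, against 7.98 and 8.09 in control cells). Calls were lost without PRMT6-KO replicate 2 for all 3 (FOXA2 0.0511), without PRMT6-KO replicate 1 for GATA4 and GATA6, and without either control array for GATA6 (highest adjusted p 0.105 for GATA4 and 0.144 for GATA6). GATA6 also lost its call when its probe sets were averaged (0.22, adjusted p = 0.0970) and when all probe sets were tested (0.0512).

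Beside MUC1, MUC5AC and MUC6, 1 of 11 other mucin genes passed the test (24.0% of all genes called). MUC13, a membrane mucin, rose by 0.42 (8.08 and 8.16 in PRMT6-KO cells, against 7.80 and 7.60 in control cells), or 0.21 with reference gene scaling (adjusted p = 0.135). That call was not kept when 1 array was left out, whichever it was (highest adjusted p 0.228), with the replicate block (0.0642) and when all probe sets were tested (0.0738). Of 21 genes for mucin-type O-glycosylation, 2 were higher and 3 lower, a share near the 24.0% of all genes called. The initiating transferase GALNT1 rose by 0.70 and GALNT3, another of that family, fell by 0.86. The chaperone gene C1GALT1C1 rose by 0.63, and the sialyltransferases ST6GALNAC1 and ST6GALNAC4 fell by 0.79 and 0.54. With the mean of probe sets GALNT3 was -0.44 and C1GALT1C1 0.27, and with gene-specific probe sets ST6GALNAC4 was -0.08 (adjusted p = 0.881). All 5 calls were lost without PRMT6-KO replicate 1 and without PRMT6-KO replicate 2, and that of ST6GALNAC4 also without either control array (highest adjusted p 0.125, for ST6GALNAC4).

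Protein relatives of the 10 genes were read in 3 lists, beside 24.0% of all genes called. None of 4 other aspartic proteases passed the test, the largest being BACE2 (-0.33, adjusted p = 0.124, limma) and CTSD (-0.18, adjusted p = 0.228); BACE2 passed with gene-specific probe sets, the mean of probe sets, the intensity trend and reference gene scaling (lowest adjusted p 0.0131), and CTSD with reference gene scaling (0.0260). Of 14 other genes of the LY6 and uPAR family, 1 was higher (CD59, 0.29) and 3 were lower (PLAUR, -1.24, LYPD3, -0.87, and LYPD6B, -0.71). PLAUR kept its call with each array left out and was -0.49 with its gene-specific probe set. CD59 lost its call with any array left out and under 5 other settings (0.08 with reference gene scaling and 0.03 with the mean of its probe sets), and LYPD3 and LYPD6B lost theirs without control replicate 1, PRMT6-KO replicate 1 or PRMT6-KO replicate 2 (highest adjusted p 0.159). None of 7 other BRICHOS genes passed the test, with TNMD (-0.34) and BRICD5 (0.21) the largest. With reference gene scaling TNMD was -0.55 and passed (adjusted p = 0.0492), and BRICD5 was 0.0024.

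**Figure D4:**
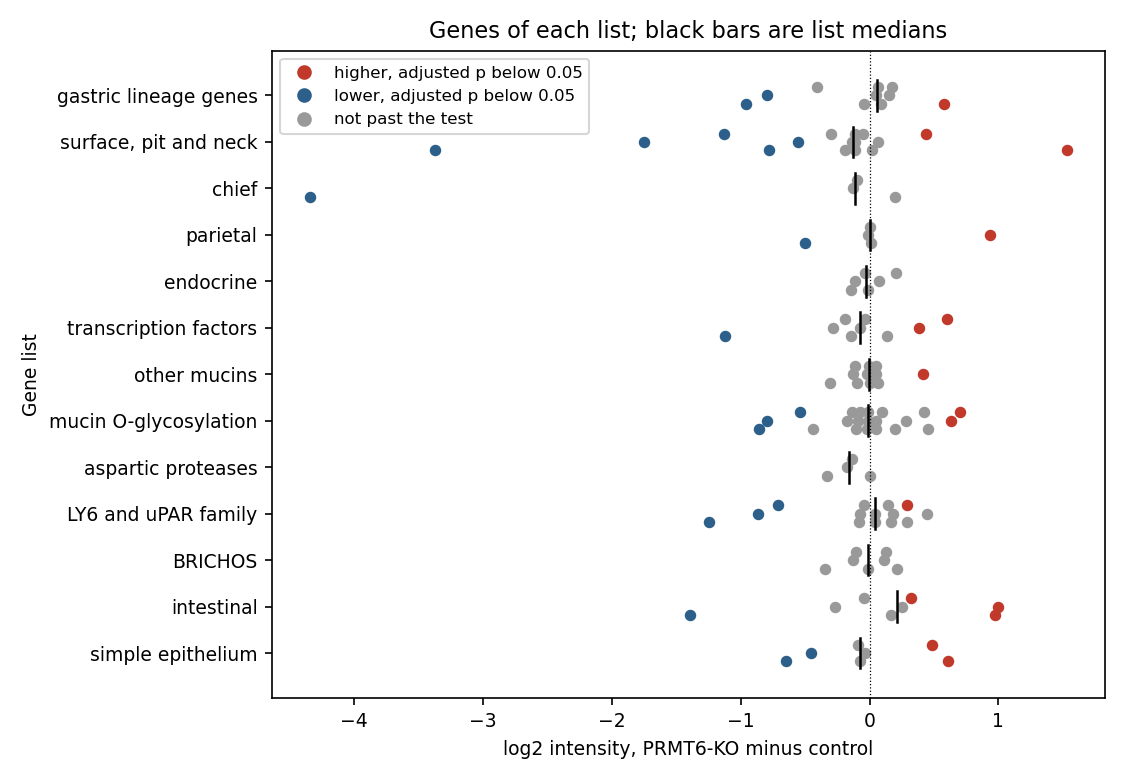
Change in log2 intensity (PRMT6-KO minus control, horizontal axis) of each measured gene in the 10 lineage genes and in 12 further lists (rows), red where higher and blue where lower at an adjusted p below 0.05, with a black bar at each list's median. BHLHA15 (-4.34) and TFF1 (-3.37) lie farthest from 0.

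Markers of other cell types were read beside these results, and their part in them was not tested. Their counts stand beside 24.0% of all genes called (12.4% higher and 11.5% lower). Of 8 intestinal markers 3 were higher and 1 lower. CDX2 rose by 1.00 (7.59 and 7.58 in PRMT6-KO cells, against 6.69 and 6.48 in control cells). SOX2 rose on the same arrays, and whether single cells expressed both was not measured. VIL1 rose by 0.97, CDH17 by 0.32 (0.11 with reference gene scaling) and LGALS4 fell by 1.39. The summed linear intensity of the list was 4093 and 3948 in PRMT6-KO cells, against 4072 and 3985 in control cells. The sum came mostly from CDH17, LGALS4 and VIL1, which did not all change in the same direction, so near-equal sums do not describe the single genes. CDX2 and VIL1 lost their calls without either PRMT6-KO array (highest adjusted p 0.0632), CDH17 with any array left out, and CDH17 also with gene-specific probe sets, the replicate block and all probe sets tested. Of 6 fibroblast markers, COL1A1 (1.56), LUM (1.37) and COL3A1 (1.02) rose, while COL1A2 (-0.31), DCN (0.12) and PDGFRB (0.06) did not pass the test; these 3 were named after their values were seen, and COL1A2 passed with reference gene scaling (-0.53, adjusted p = 0.0373). The summed linear intensity was 1254 and 1187 in PRMT6-KO cells, against 449.1 and 474.9 in control cells, mostly from the COL1A1 probe set. LUM and COL3A1 were dim and lost their calls with gene-specific probe sets (0.07 and 0.18), and COL1A1 was 0.72 with the mean of its probe sets. Leaving out either PRMT6-KO array ended the calls of LUM and COL3A1, and either control array that of COL3A1 (highest adjusted p 0.134). Of 5 leukocyte markers none passed the test; LYZ, which gastric glands also make, read 12.36 and 11.30 in PRMT6-KO cells, against 12.77 and 12.88 in control cells, and PTPRC was dim. LYZ passed in 4 of 11 alternatives (lowest adjusted p 0.0303), and PTPRC with gene-specific probe sets (adjusted p = 0.0217). Leukocyte markers summed to 5347 and 2614 in PRMT6-KO cells, against 7106 and 7649 in control cells, mostly from LYZ. None of 4 endothelial markers passed the test (VWF 0.18 and KDR 0.14, sums of 116.1 and 121.6, against 102.8 and 113.3). Of 7 markers of simple epithelium 2 were higher (KRT19, 0.61, and KRT8, 0.49) and 2 lower (CLDN7, -0.65, and CLDN4, -0.46), calls that were lost for all 4 without either PRMT6-KO array and for KRT8, CLDN7 and CLDN4 also without either control array. KRT19 was 0.40 and KRT8 0.28 with reference gene scaling, where KRT8 did not pass, nor did it with the replicate block (adjusted p = 0.0509) or all probe sets tested (0.0538), and CLDN4 was -0.23 with the mean of its probe sets and did not pass.

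The genes next to the 10 were also read, in the order of protein-coding genes in GRCh38.p14. GKN1 and GKN2 are neighbours of each other on chromosome 2. Of 17 other neighbours measured, 2 were higher and 3 lower (limma, 24.0% of all genes called). The 5 are named because they are few, chosen after their values were seen. TFEB, next to PGC, is a transcription factor of lysosome genes and fell by 0.54 (5.67 and 5.49 in PRMT6-KO cells, against 6.24 and 5.99 in control cells, adjusted p = 0.0300). THBS3 (-0.66) and TRIM46 (0.36) flank MUC1, AP2A2 (-0.62) lies next to MUC6 and PSMD10 (0.50) next to VSIG1. The TFEB values in PRMT6-KO cells and all TRIM46 values lay within the range of the 13 genes of other tissues. The sizes of these 2 changes are therefore approximate. The calls of the 5 neighbours were not checked with arrays left out or under the other alternatives. The neighbours of CTSE, RAB7B (0.10) and RHEX (-0.11), and those of SOX2, DNAJC19 (-0.03) and ATP11B (-0.01), did not pass the test. MUC2 and MUC5B flank MUC5AC on chromosome 11, and their changes of 0.00 and -0.02 did not pass either.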

How the data were processed

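RNA of AGS cells was read on 4 expression arrays, 2 of PRMT6-KO cells and 2 of control cells, grouped by sample title. The authors deposited log2 intensities of 54613 probe sets; per the submitters' processing notes RMA and affy were used (versions not given in the sources used here), and the values, with array medians of 5.01 to 5.02, show the log2 scale. RMA corrects background, sets arrays to nearly the same distribution and compresses dim differences, so each change is relative to the other transcripts. The number of arrays limits the precision. Per the labels' protocols, RNA was amplified from the 3′ end and labelled with biotin.

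Probe sets with 1 gene symbol (41091; 1801 had several, 11721 were not listed with a gene) were named from the platform annotation, updated through Entrez numbers to RefSeq of GRCh38.p14 (41037 matched). The brightest probe set stood for each of 19775 genes. PRMT6-KO minus control was fitted on all 4 arrays with limma 3.58.1 in R 4.3.3 (lmFit, eBayes, no covariates, 2 residual and 3.27 prior degrees of freedom), with Benjamini-Hochberg adjustment over all genes. An exact permutation test of 2 against 2 arrays cannot go below p = 0.333 and was not used. The test was tested on simulated data.

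The members, gene lists and tests were chosen with earlier results of these data known. Named genes were PRMT6, all 10 members, and in each list the called genes, up to the 6 with the largest change, or 2 where none was called; FUT2, COL1A2, DCN and PDGFRB were added after their values were seen. Some listed genes were not analysed here. The reference genes of the alternative scaling were the 8 measured of 10 listed, of which GAPDH, HPRT1 and PPIA were higher (0.35, 0.44 and 0.37). Other alternatives were the mean of probe sets, gene-specific probe sets, genes with a mean of at least 5, an intensity trend, the replicate block, all probe sets tested and leaving out each array.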

Additional observations from a re-analysis of the deposited data

How the results depend on the processing

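PGC and CTSE fell and SOX2 rose under all alternatives that read them, with log2 changes of -1.14 to -0.74, -1.17 to -0.92 and 0.29 to 0.64, and passed the test in 9 of 11, 9 of 10 and 7 of 11. The count of the 10 genes called higher was 0 in place of 1 with the mean of probe sets, and 0 to 1 with single arrays left out. The count called lower was 1 in place of 2 with gene-specific probe sets, which do not read CTSE. It was 3 with the intensity trend and with reference gene scaling, MUC1 in addition. It was smaller without PRMT6-KO replicate 1, where PGC lost its call, and without PRMT6-KO replicate 2, where PGC and CTSE did. Leaving out single arrays gave 154 to 1371 genes higher and 354 to 1258 lower, in place of 2459 and 2281, with fewer arrays behind each fit. Reference gene scaling gave 1367 higher and 5730 lower and set the median change over all genes at -0.22 in place of -0.01; gene-specific probe sets gave 1629 higher of 17098 genes tested. All 4 arrays give 2 residual degrees of freedom, and dim probe sets have no measured background.

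The labels number the arrays 1 and 2 in both groups. Deviations of the arrays numbered 1 from their group means had a correlation of 0.05 across genes, so the numbers were not taken to pair the arrays. With the replicate block, 2035 genes were higher and 1937 lower, and PGC (adjusted p = 0.00917, limma), CTSE (0.00609) and SOX2 (0.0245) passed the test.

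Signs turned only for genes that did not pass the test in either setting. With reference gene scaling GKN2 was -0.037, MUC5AC -0.14, MUC6 -0.16, PSCA -0.12, VSIG1 -0.057, CHGA -0.0077, VWF -0.027, KDR -0.065, DCN -0.090 and PDGFRB -0.15, with the mean of probe sets MUC6 was -0.17, and with gene-specific probe sets COL1A2 was 0.11. With single arrays left out GKN1 ran from -0.099 to 0.0097, MUC5AC from -0.086 to 0.22, MUC6 from -0.039 to 0.14, PSCA from -0.13 to 0.31, VSIG1 from -0.026 to 0.33 and PDGFRB from -0.10 to 0.23. The cause of these changes was not tested. MUC5AC was -0.033 without PRMT6-KO replicate 2 and PSCA -0.017 without PRMT6-KO replicate 1. Over all named genes and alternatives, 142 values lost a call and 17 gained one.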
